A study of Mus musculus with 19 samples.

Results

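The 33 genes described here are 25 genes of astrocyte reactivity and 8 genes of astrocyte identity, of 55487 genes listed in the deposited tables. They were taken by symbol from a named list and matched to the Ensembl identifiers of the tables, which held all 33. Astrocytes are the glial cells that take up transmitter and potassium, couple through gap junctions and line the vessels of the spinal cord. After injury, infection or neurodegeneration they become reactive: they add the intermediate filaments encoded by Gfap and Vim and secrete acute-phase, matrix and protease-inhibitor proteins. Studies of mouse brain divided the genes of this response into a pan-reactive set, a set linked to endotoxin and a set linked to ischaemia, and 11, 4 and 10 of the reactive genes belong to these sets. The identity genes encode proteins that resting astrocytes already make, such as the water channel Aqp4 and the gap junction protein Gja1.

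The series concerns miR-146a, a microRNA known to restrain signalling from Toll-like and interleukin receptors to NF-kB, in motor neuron degeneration. RNA was sequenced from snap-frozen spinal cords in 9 libraries labelled miR-146a KO and 4 labelled wild type, and the labels give no allele design, strain, age or sex. RNA was also sequenced from motor neurons derived from RW.4, a mouse embryonic stem cell line, by treatment with retinoic acid and an agonist of Smoothened; the genotype is wild type in both culture groups. The cultures were transfected for 72 h with 10 nM of a locked nucleic acid (LNA, an oligonucleotide that binds a microRNA) against miR-146a in 3 libraries, or with a control LNA in 3. Whether each library is its own animal or culture is not stated in the labels, and p-values therefore measure only the spread between these libraries. In whole cords, fewer or more cells of a type and less or more RNA per cell cannot be told apart.

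Cord libraries held 28163289 to 39577247 counts and culture libraries 40647549 to 65471742, and mitochondrial transcripts took 1.61% to 1.99% and 0.454% to 0.590%. The targeted gene could not be read: Mir146 had 1 count over the 9 knockout libraries and 0 over the wild-type, miR-146a LNA and control LNA groups. Its neighbour Pttg1 stood at 1.06 to 1.81 normalised CPM (CPM after TMM scaling) in 8 knockout cords, against 14.9 to 17.4 in wild-type cords. It stood at 13.04 in the library labelled knockout replicate 9, which at this gene goes against its label and which also had Sod1 at 8.05 times the mean of the other 8 knockout cords. Knockout replicate 7 stood apart by muscle transcripts, with 5760 normalised CPM over 10 skeletal muscle genes, against 6.08 to 7.80 in the other knockout cords and 5.82 to 18.02 in wild-type cords. Both libraries were kept in their labelled groups, and results are also given without them.

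miR-146a finds its targets through its seed, bases 2 to 8, so the sequence and the matches to it in the members are shown first. In capitals is the seed GAGAACU, which Mir146b shares; sequences and positions are from RefSeq (GRCm38.p6), and miR-146a-5p lies at chr11:43374435-43374456 on the minus strand.
miR-146a-5p: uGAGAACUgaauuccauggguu
miR-146b-5p: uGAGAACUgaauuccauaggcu

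The reverse complement of the seed, AGTTCTC, occurred in the longest annotated 3′ UTR of 3 of the 33 members, of which 2 were reactive genes and 1 an identity gene. Among all 15640 genes tested in cords with an annotated 3′ UTR the share was 12.4%. The sites are shown in capitals, on the transcript strand, from the GENCODE M21 annotation.
Fbln5: gtggcttggaaAGTTCTCtgaggggctga
B3gnt5: taagaatttcaAGTTCTCatttggttcta
Aldoc: cagagtgggccAGTTCTCctccatctctg
The match in B3gnt5 is followed by an A, which extends it to 8 bases, as in 4.46% of those genes. None of these 3 genes was called in cords or in cultures, and the other 30 members hold no match in this UTR. A match is a string of letters and not a shown target.

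In cords, 24 of the 25 reactive genes had a positive fold change in knockout over wild-type libraries, as did 53.1% of all 22174 genes tested. By edgeR's quasi-likelihood test with Benjamini-Hochberg adjustment over all genes, 0 members were called, and neither was any other gene (0%). At an unadjusted edgeR p below 0.05, 19 reactive genes were higher and 0 lower in knockout cords, where 7.53% of all genes were higher and 6.8% lower. DESeq2 called 8 reactive genes higher and 0 lower (1.27% of 22905 genes with an adjusted p were called higher): Vim, Lcn2, Serpina3n, Steap4, Timp1, Srgn, Tgm1 and Cd109. Without the library labelled knockout replicate 9, DESeq2 called 13 reactive genes higher (2.49% of all genes), and without it and replicate 7 it called 11 (2.79%); the edgeR count at an unadjusted p below 0.05 was then 19 and 17. The median log2 fold change was 1.47 over the reactive genes, −0.005 over the 8 identity genes and 0.02 over all genes tested. Of the identity genes, 4 had a positive and 4 a negative fold change. With all cord libraries, 0 passed an unadjusted edgeR p below 0.05 or the adjusted threshold of either tool. With 1 cord library left out in turn, S100b passed the unadjusted edgeR threshold in 3 of 13 fits. Aldh1l1 and Sox9 passed that edgeR threshold in 1 of 13 fits each, the fit without the library labelled knockout replicate 9. Identity genes called by edgeR after adjustment numbered 0 in all these fits.

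All 11 pan-reactive genes were among the 19, with a median log2 fold change of 1.70, as were 2 of the 4 endotoxin genes (median 0.84) and 6 of the 10 ischaemia genes (median 1.69). The DESeq2 calls numbered 5, 1 and 2 in these sets. 5 reactive genes (Steap4, Timp1, Slc10a6, Tgm1 and B3gnt5) did not reach the count filter's level of 0.284 CPM in every wild-type library and so entered the test through their knockout libraries. Among the other 20 reactive genes, 19 fold changes were positive, 15 passed an unadjusted edgeR p below 0.05, 5 were called by DESeq2, and the median was 1.45.

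**Figure D1:**
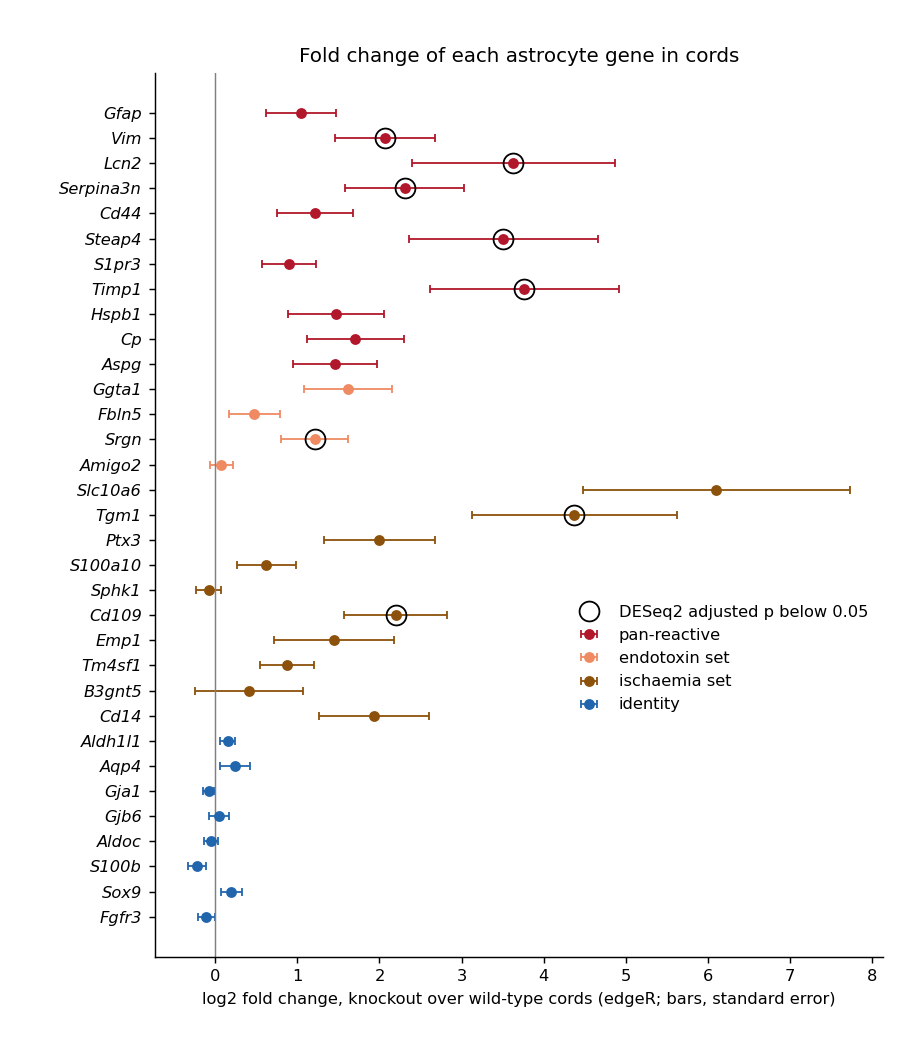
Log2 fold change of the 33 astrocyte genes in knockout over wild-type cords on the x axis (points; bars, standard error of the edgeR fit; 9 against 4 libraries), one gene per row, coloured by gene set, with rings where DESeq2 gave an adjusted p below 0.05. Of the reactive genes, 24 run from −0.08 (Sphk1) to 4.37 (Tgm1); the point of Slc10a6 lies further right but depends on the fit's prior count, since all 4 wild-type libraries were at 0. The 8 identity genes run from −0.22 (S100b) to 0.24 (Aqp4).

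The intermediate filament genes are the classical signs of reactive astrocytes. Gfap (ENSMUSG00000020932, chromosome 11, 102887336 to 102900912, minus strand, GRCm38) had a lowest, median and highest value of 1082, 2661 and 6056 normalised CPM among knockout cords, against 1737, 2075, 1318 and 1240 among wild-type cords. The groups overlapped: 6 of 9 knockout libraries lay above every wild-type library, and replicate 2 lay below all 4. Gfap had a log2 fold change of 1.04 (SE 0.43, edgeR adjusted p = 0.315), and DESeq2 did not call it either (adjusted p = 0.173). Without both knockout replicate 7 and the library labelled knockout replicate 9 it was 0.92.

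Vim (ENSMUSG00000026728, chromosome 2, 13573927 to 13582826, plus strand) encodes vimentin, which endothelial cells and microglia also make. Its lowest, median and highest values were 70.7, 286 and 876 normalised CPM among knockout cords, against 85.3, 95.1, 75.4 and 91.6 among wild-type cords. Replicate 2 was again the lowest of all 13 libraries, and the other 8 knockout libraries lay above every wild-type library. For Vim the log2 fold change was 2.07 (SE 0.60, edgeR adjusted p = 0.292; DESeq2 adjusted p = 0.0174), and 1.92 without the 2 libraries that stand apart.

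Several reactive genes encode secreted proteins. Serpina3n (ENSMUSG00000021091, chromosome 12, 104406729 to 104414329, plus strand), a serine protease inhibitor with near-identical neighbours that counting can split, had 41.4, 132 and 699 normalised CPM as lowest, median and highest among knockout cords, against 47.5, 49.7, 45.3 and 56.3 among wild-type cords. Wild-type values were close together, 8 of 9 knockout libraries lay above them, and replicate 2 lay below. Serpina3n had a log2 fold change of 2.30 (SE 0.73, edgeR adjusted p = 0.292; DESeq2 adjusted p = 0.0288).

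Timp1 (ENSMUSG00000001131, chromosome X, 20870166 to 20874735, plus strand) encodes an inhibitor of matrix metalloproteinases and overlaps Syn1 on the opposite strand, so its counts are uncertain. It had 0.11, 2.89 and 21.5 normalised CPM as lowest, median and highest among knockout cords, against 0.19, 0.34, 0.44 and 0.60 among wild-type cords. All knockout libraries but replicate 2 lay above the wild-type range, which itself came from 6 to 21 counts per library. That gave a log2 fold change of 3.76 (SE 1.15, edgeR adjusted p = 0.292; DESeq2 adjusted p = 0.01), and 3.10 without knockout replicate 7.

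Lcn2, a secreted carrier of iron-binding siderophores, stood at 2.21 to 154 normalised CPM among knockout cords, against 0.94 to 9.36 in wild-type cords (log2 fold change 3.63, SE 1.24). Wild-type replicate 4 held the value of 9.36 while the other 3 were at 0.94 to 2.17, and leaving it out moved the log2 fold change to 4.89. Cp (ceruloplasmin, a copper ferroxidase) had a log2 fold change of 1.70 and Ptx3 (a soluble pattern recognition protein) one of 2.00, and Ptx3 was above the wild-type range in 9 of 9 knockout libraries. Cp overlaps Hps3 and Ptx3 overlaps Veph1 on the opposite strand. Srgn, the proteoglycan serglycin of secretory granules, which blood cells and microglia also make, had a log2 fold change of 1.21 and was above the wild-type range in 8 of 9. Fbln5, an elastic fibre protein, had one of 0.48 (SE 0.31, edgeR adjusted p = 0.478).

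Among genes for membrane proteins, Cd109 and Slc10a6 had the smallest p-values. Cd109 (ENSMUSG00000046186, chromosome 9, 78615546 to 78716253, plus strand), a membrane-anchored protein that binds transforming growth factor beta, had 3.34, 11.8 and 43.6 normalised CPM as lowest, median and highest among knockout cords, against 4.13, 4.45, 3.81 and 3.87 among wild-type cords. Replicate 2 was below and 8 of 9 knockout libraries were above the wild-type range. The log2 fold change was 2.20 (SE 0.63, edgeR adjusted p = 0.292; DESeq2 adjusted p = 0.0165).

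Slc10a6 (ENSMUSG00000029321, chromosome 5, 103605711 to 103629403, minus strand), a transporter of sulphated steroids, was near the limit of detection. It had 80 counts over the 9 knockout libraries, from 4 to 18 in 7 libraries and 0 in replicate 2 and the library labelled knockout replicate 9, and 0 counts in all 4 wild-type libraries. Against a floor of 3 counts over the wild-type group, it was at least 11.4-fold higher in knockout cords (edgeR adjusted p = 0.292). Without knockout replicate 7 it no longer passed the count filter.

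The other membrane genes also had higher means in knockout cords, and they differed in how far the groups separated. Steap4, a metal reductase, had a log2 fold change of 3.51 and was above the wild-type range in 8 of 9 knockout libraries, but stood at 0.07 normalised CPM in the library labelled knockout replicate 9, below every wild-type library. S1pr3, a receptor for sphingosine 1-phosphate, had a log2 fold change of 0.90 and was above the wild-type range in 9 of 9 knockout libraries; Ptx3 was the other reactive gene with no overlap, where 0.505% of all genes had none in this direction. The hyaluronan receptor Cd44 (1.22), the endotoxin co-receptor Cd14 (1.93) and the surface protein Tm4sf1 (0.87) were above it in 7 of 9. Emp1, a small membrane protein, reached 40.9 normalised CPM in knockout replicate 7, and its log2 fold change of 1.45 became 0.75 without that library. Amigo2, an adhesion protein whose gene overlaps Pced1b, stood at 0.07.

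Among enzymes, Tgm1 (ENSMUSG00000022218, chromosome 14, 55700009 to 55713926, minus strand), a transglutaminase that cross-links proteins, had the highest fold change of the genes read in every library. It had 0.25, 2.23 and 27.7 normalised CPM as lowest, median and highest among knockout cords, against 0.44, 0.28, 0.25 and 0.23 among wild-type cords. Replicate 2 lay inside the wild-type range and the other 8 knockout libraries above it, with replicate 1 far above the rest. The log2 fold change was 4.37 (SE 1.25, edgeR adjusted p = 0.292; DESeq2 adjusted p = 0.0026), and 3.57 without replicate 1.

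The remaining enzymes and cytoplasmic proteins divided. Aspg, an asparaginase, and Ggta1, a galactosyltransferase, had log2 fold changes of 1.46 and 1.62, and the small heat shock protein gene Hspb1 one of 1.47, each with 7 or 8 of 9 knockout libraries above the wild-type range. S100a10, the partner of annexin A2, had one of 0.62 (SE 0.36, edgeR adjusted p = 0.428). Sphk1, the sphingosine kinase that makes the ligand of S1pr3, had one of −0.08 (SE 0.15), with 2 knockout libraries above and 4 below the wild-type range. B3gnt5, a glycolipid acetylglucosaminyltransferase, stood at 0.05 to 1.36 normalised CPM in knockout cords and 0.13 to 0.46 in wild-type cords, and its log2 fold change of 0.41 became −0.11 without knockout replicate 7.

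**Figure D2:**
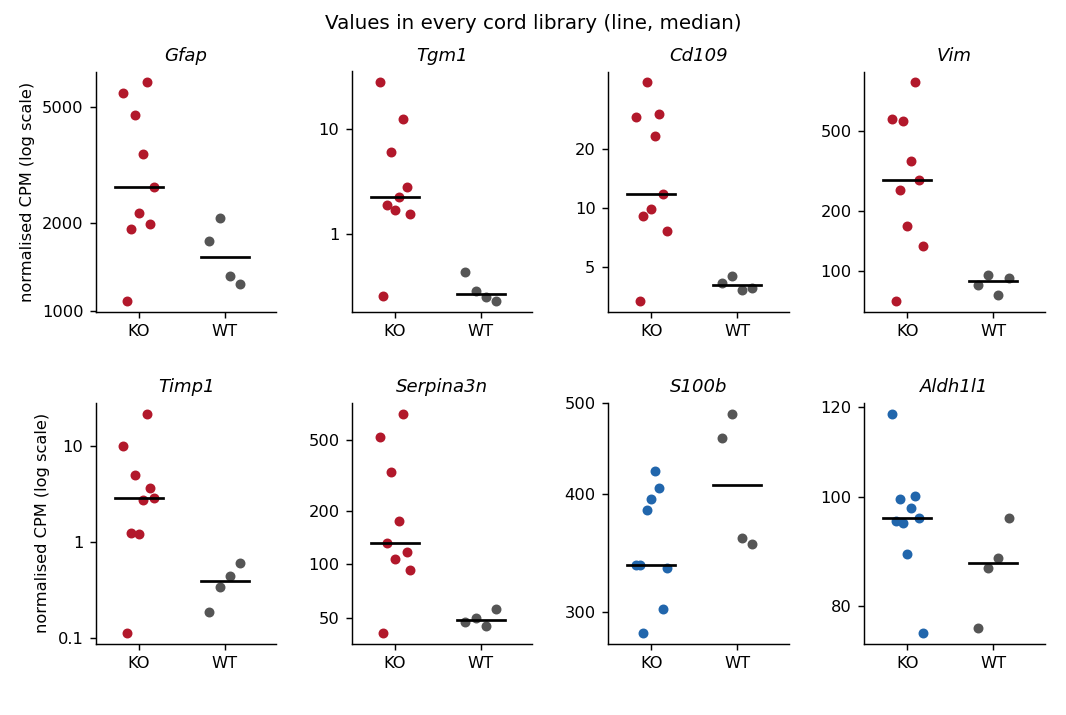
Normalised CPM (y axis, log scale) of Gfap, 5 reactive genes and 2 identity genes in 9 knockout (KO) and 4 wild-type (WT) cord libraries, one point per library, with the group median as a line. Slc10a6 is not drawn, since all 4 wild-type libraries were at 0; for Tgm1, Cd109, Vim, Timp1 and Serpina3n all knockout libraries but 1 lie above the wild-type points, and for S100b and Aldh1l1 the groups overlap.

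Log2 fold changes of the identity genes lay between −0.22 and 0.24. S100b (ENSMUSG00000033208, chromosome 10, 76253853 to 76261159, plus strand), a calcium-binding protein whose gene overlaps Dip2a on the opposite strand, had 285, 337 and 424 normalised CPM as lowest, median and highest among knockout cords, against 459, 487, 360 and 354 among wild-type cords. The groups overlapped, with 5 of 9 knockout libraries below every wild-type library. The log2 fold change was −0.22 (SE 0.11, edgeR adjusted p = 0.381).

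Aldh1l1 (ENSMUSG00000030088, chromosome 6, 90486427 to 90600203, plus strand), a folate enzyme used to mark astrocytes across the central nervous system, had 75.8, 95.8 and 118 normalised CPM as lowest, median and highest among knockout cords, against 76.5, 86.5, 88.3 and 95.7 among wild-type cords. Here 5 of 9 knockout libraries lay above every wild-type library and 1, the library labelled knockout replicate 9, below. The log2 fold change was 0.15 (SE 0.09, edgeR adjusted p = 0.442), and 0.19 without that library (edgeR adjusted p = 0.258).

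Aqp4, the water channel of astrocyte endfeet, had 324, 388 and 625 normalised CPM as lowest, median and highest among knockout cords, against 381, 397, 398 and 278 among wild-type cords. Knockout replicates 7 and 1 and the library labelled knockout replicate 9 lay above every wild-type library, and the log2 fold change was 0.24 (SE 0.18). The standard deviation of its log2 level among knockout cords, 0.35, was above that of the reactive genes Amigo2 and Sphk1, 0.29 each. The transcription factor Sox9 had a log2 fold change of 0.19 (SE 0.13) and the growth factor receptor Fgfr3 one of −0.11 (SE 0.10). The gap junction genes Gja1 and Gjb6 had −0.08 (SE 0.07) and 0.05 (SE 0.13), and the glycolytic enzyme Aldoc −0.06 (SE 0.09). The signs of Aldoc and Gjb6 turned under some alternatives given in the closing section. A missed threshold does not show that levels were equal.

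Most reactive genes ranged more widely between knockout libraries than most identity genes. Relative to the wild-type mean, the median over the 25 reactive genes of log2(normalised CPM + 0.1) was 1.85, −0.14, 0.83, 1.89, 0.66, 1.23, 2.75 and 1.13 in knockout replicates 1 to 8 and 0.28 in the library labelled knockout replicate 9. In the wild-type libraries it was 0.01, 0.00, −0.16 and 0.18. The same median over the 8 identity genes lay between −0.20 and 0.13 in the knockout libraries and between −0.10 and 0.07 in the wild-type libraries. Knockout replicate 7 had the highest value of all 13 libraries for 17 reactive genes and replicate 1 for 4. Replicate 2 had the lowest for 10, counting Slc10a6, where it tied at 0 with other libraries. It lay below every wild-type library for 10 reactive genes, which include Sphk1 and not Slc10a6. The library labelled knockout replicate 9 was above every wild-type library for 12 reactive genes, and replicate 7 for 24. These counts for single libraries were not made over all genes.

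**Figure D3:**
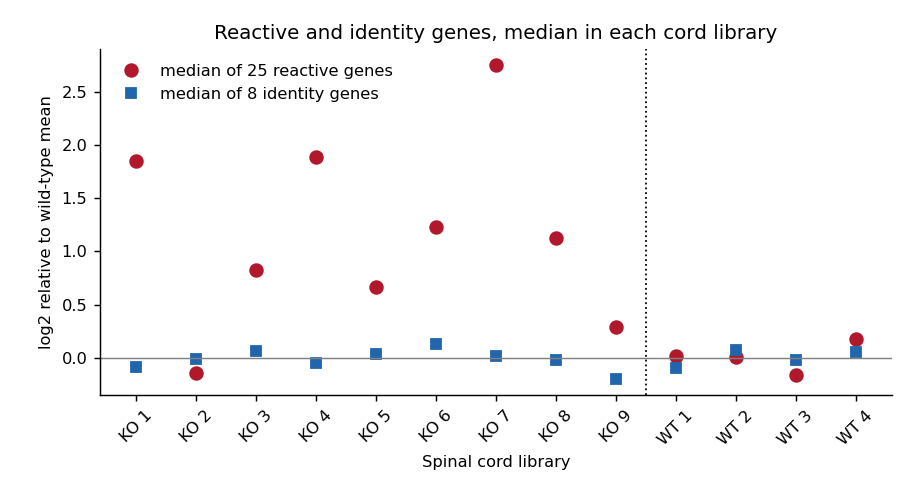
Median over 25 reactive genes (circles) and 8 identity genes (squares) of the log2 level relative to the wild-type mean (y axis) in each cord library (x axis; KO, knockout; WT, wild type). Reactive medians run from −0.14 (KO 2) to 2.75 (KO 7) in knockout libraries and from −0.16 to 0.18 in wild-type libraries, while identity medians stay between −0.20 and 0.13.

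At least 7 of 9 knockout libraries lay above every wild-type library for 17 of the 25 reactive genes, and all 9 did for 2. All 9 did for 0.505% of all genes tested, and the share of all genes with at least 7 was not computed. The standard deviation of the log2 level was larger among knockout than among wild-type libraries for 25 of 25 reactive genes, 7 of 8 identity genes and 78.3% of all genes tested. Its median was 1.01 in knockout and 0.23 in wild-type cords over reactive genes, 0.21 and 0.11 over identity genes, and 0.27 and 0.16 over all genes tested. The knockout group has 9 libraries and the wild-type group 4.

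**Figure D4:**
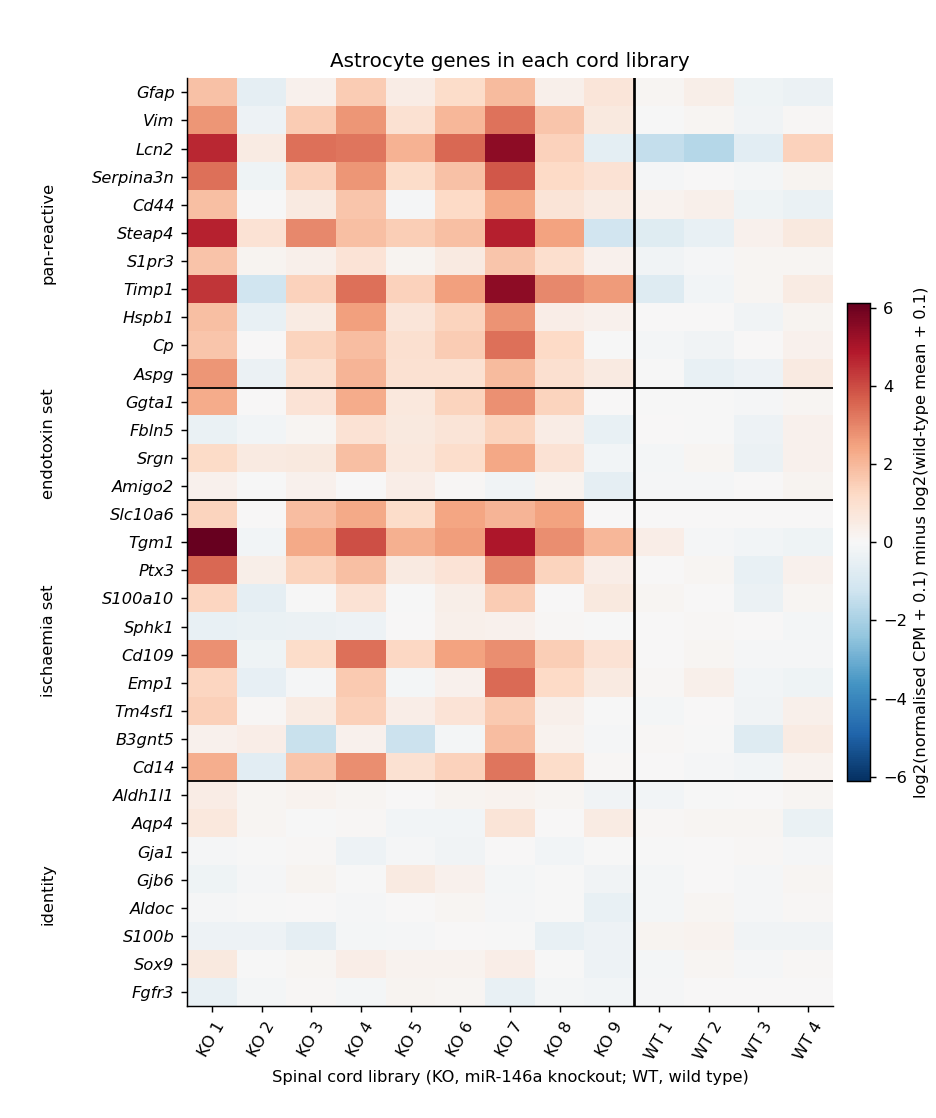
Each of the 33 astrocyte genes (rows, grouped by set) in each cord library (columns; KO, knockout; WT, wild type) as log2(normalised CPM + 0.1) minus log2(wild-type mean + 0.1). Columns KO 1, KO 4 and KO 7 are high for most reactive genes. KO 2 lies below every wild-type library for 10 of the 25 reactive genes and above every one for 4. Most identity rows are pale, with Aqp4 at 625 normalised CPM in KO 7.

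Within the 9 knockout libraries, most reactive genes followed Gfap. Over 32 relations computed on log2 levels, Pearson's r with Gfap was positive for 23 of the other 24 reactive genes, with a median of 0.82, and for 4 of 8 identity genes, with a median of 0.13. By the exact two-sided permutation test adjusted over the 32 relations, 16 reactive genes and 0 identity genes had an adjusted p below 0.05 (9 and 0 by Spearman's rho). The share of all tested genes that follow Gfap in this way was not computed, so whether these counts are unusual is not known. S100a10, which did not separate the genotypes, had r = 0.962 (exact permutation adjusted p = 0.0013) and rho = 0.967, and Serpina3n had r = 0.955 and rho = 0.833. Sox9 had the highest r of the identity genes, 0.71 (exact permutation adjusted p = 0.054; rho = 0.77), and Fgfr3 the lowest, −0.56.

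Without the 2 libraries farthest from the Gfap median, replicates 2 and 7, the median r over reactive genes was 0.68 and 0 members passed by the exact permutation test. The relations that passed therefore rest in part on those libraries, although r remained 0.94 for S100a10 and 0.90 for Serpina3n. Without the library labelled knockout replicate 9 the median was 0.90. The identity gene Sox9 then also passed, with r = 0.905 (exact permutation adjusted p = 0.0074), and the other identity genes did not. The points share library, depth and cell composition, and what the libraries had in common beyond these genes was not tested.

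Other gene lists were read in the same libraries. Of 13 further genes of the same reactive panels, 12 could be tested; all 12 had a positive fold change and an unadjusted edgeR p below 0.05, with a median log2 fold change of 1.23, and DESeq2 called 3. These were the chemokine Cxcl10 (2.27), the oncostatin M receptor Osmr (1.73) and the prostaglandin synthase Ptgs2 (2.22), and the transcription factor Stat3 stood at 154 ± 42.4 normalised CPM in knockout and 115 ± 3.25 in wild-type cords (SD, n = 9 and 4; log2 fold change 0.42). Ugt1a1, the gene not tested, had no counts in cords.

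Of 18 genes for signals known to start or carry astrocyte reactivity, 16 could be tested, all had a positive fold change and 10 passed an unadjusted edgeR p below 0.05. DESeq2 called the interleukin receptor Il1r1 (log2 fold change 1.84, SE 0.37), the cytokine Osm (2.55) and the feedback inhibitor Socs3 (2.40). Il1r1 stood at 4.41 to 20.8 normalised CPM in knockout and 1.99 to 3.55 in wild-type cords, so its groups did not overlap.

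Of 29 further astrocyte identity genes all were tested, with 12 positive and 17 negative fold changes and a median of −0.03. The glutamate transporter Slc1a3 (log2 fold change 0.33) and the bicarbonate transporter Slc4a4 (0.16) were higher in knockout cords at an unadjusted edgeR p below 0.05, and the amino acid transporter Slc7a10 (−0.48) and the organic anion transporter Slco1c1 (−0.18) were lower. None of the 29 was called by edgeR or DESeq2.

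Markers of some other cell types had higher means in knockout cords. Of 14 microglia and macrophage markers, all had a positive fold change and 12 an unadjusted edgeR p below 0.05 (median 1.25), and DESeq2 called Mrc1, Ptprc and Cd68. Their summed level was 279 to 1388 normalised CPM in knockout and 318 to 372 in wild-type cords, lowest in replicate 2 and highest in replicate 7, then 4 and 1. Of 7 red blood cell genes, 6 were tested all 6 passed an unadjusted edgeR p below 0.05, and DESeq2 called all 7. Their summed level was 36.6 to 709 normalised CPM in knockout and 22.7 to 44.5 in wild-type cords, highest in replicates 7 (709) and 5 (497). Of 10 neutrophil and monocyte genes 7 were tested, all with a positive fold change and 5 at an unadjusted edgeR p below 0.05 (median 3.28), and DESeq2 called 1. Their summed level was low, at 2.40 to 69.6 normalised CPM in knockout and 1.87 to 3.81 in wild-type cords, highest in replicates 7 (69.6) and 3 (61.1). The summed level of 12 endothelial markers was 452 to 899 in knockout and 511 to 610 in wild-type cords, with 2 of 12 at an unadjusted edgeR p below 0.05. That of 12 fibroblast and meningeal markers was 381 to 781 in 8 knockout cords, 2953 in replicate 7 and 443 to 685 in wild-type cords. Srgn, Cd14, Cd44, Vim and Tgm1 are not specific to astrocytes, and the part of these other cells in the levels of the reactive genes was not tested.

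Neuronal markers had mostly negative fold changes. Of 12 pan-neuronal markers 11 had a negative fold change and 5 an unadjusted edgeR p below 0.05, and of 10 motor neuron markers 8 and 4. DESeq2 called the neurofilament gene Nefl (log2 fold change −0.36) and the motor neuron gene Chodl (−1.01) lower in knockout cords. It called 60 of the 22905 genes with an adjusted p lower there.

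Per length, the order of the genes by the TPM values that the authors deposited differed between groups. In knockout cords Gfap came first of the 33, at 2478 ± 1302 TPM, followed by Aldoc at 1814 ± 139 and S100b at 768 ± 96.2 (SD, n = 9). In wild-type cords Aldoc came first at 1812 ± 73.4 TPM, then Gfap at 1163 ± 289 and S100b at 861 ± 152 (SD, n = 4). The knockout ranges of Gfap (809 to 4603 TPM) and Aldoc (1528 to 2003 TPM) overlap, so their order differs between knockout libraries. Serpina3n (377 TPM) and Vim (244 TPM) held places 4 and 5 in knockout cords; in wild-type cords they held places 8 and 12 (73.9 and 56.2 TPM). Lcn2 was at 51.2 ± 59.8 TPM in knockout and 3.89 ± 4.40 TPM in wild-type cords, and the lowest reactive genes in both were Slc10a6 and B3gnt5, below 1 TPM.

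The promoters of the reactive genes were searched because the reactive genes varied together and because STAT, NF-kB and AP-1 factors are known to drive such genes. RefSeq promoters (GRCm38.p6, 250 bases before to 50 after each start) were found for 28 members, 22 reactive and 6 identity genes. The STAT motif TTCNNNGAA, read on both strands, matched in 5 of the 22 reactive genes (Gfap, Steap4, Tgm1, Sphk1 and Emp1), 1 of the 6 identity genes (Aldoc) and 9.55% of all 27025 genes with a promoter. Both shares count a gene with a match at any of its start sites, and Sphk1 has 5 such windows while Tgm1, Emp1 and Aldoc have 2 each. The NF-kB motif GGANTTTCC matched in 0 members and 1.45% of genes, and the AP-1 motif TGANTCA in 3 reactive genes (Cp, Sphk1 and Emp1), 1 identity gene (Gja1) and 8.97% of genes. In Sphk1 and Emp1 both kinds occur in 1 window. Of the 5 reactive genes with a STAT match, Sphk1 and Emp1 did not pass an unadjusted edgeR p below 0.05 and DESeq2 called Steap4 and Tgm1. Vim, Serpina3n, Lcn2 and Timp1 hold none of the 3 motifs in these windows.

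The windows of the pan-reactive genes with a STAT match and of Tgm1, which holds 2, are shown with the matches in capitals. Those of Emp1, which also holds 2, and of Sphk1 are not shown. The windows shown were thus picked for their matches. They lie at chr14:55713443-55713742 on the minus strand for Tgm1 (its second listed start site), chr5:7960222-7960521 on the plus strand for Steap4 and chr11:102897151-102897450 on the minus strand for Gfap. The matches begin 173 and 64 bases before the start in Tgm1, 116 before it in Steap4 and 2 before it in Gfap.
Tgm1: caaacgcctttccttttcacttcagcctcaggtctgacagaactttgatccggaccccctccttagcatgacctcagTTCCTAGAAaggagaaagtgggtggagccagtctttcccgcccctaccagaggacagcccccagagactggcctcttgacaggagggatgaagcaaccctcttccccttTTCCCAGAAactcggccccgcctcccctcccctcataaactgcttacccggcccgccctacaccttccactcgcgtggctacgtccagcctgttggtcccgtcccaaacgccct
Steap4: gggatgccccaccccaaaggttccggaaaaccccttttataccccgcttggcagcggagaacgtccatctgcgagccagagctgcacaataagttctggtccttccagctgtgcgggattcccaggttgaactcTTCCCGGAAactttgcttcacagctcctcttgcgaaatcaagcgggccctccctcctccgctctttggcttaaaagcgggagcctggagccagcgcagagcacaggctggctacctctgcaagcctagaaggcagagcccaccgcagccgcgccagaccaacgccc
Gfap: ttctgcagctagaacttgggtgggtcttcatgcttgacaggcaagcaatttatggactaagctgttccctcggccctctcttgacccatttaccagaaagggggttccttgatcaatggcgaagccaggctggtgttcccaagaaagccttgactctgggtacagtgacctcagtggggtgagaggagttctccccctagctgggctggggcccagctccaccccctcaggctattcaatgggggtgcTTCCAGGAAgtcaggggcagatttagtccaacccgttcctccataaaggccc

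In the motor neuron cultures, Gfap and 3 of the 8 identity genes (Aqp4, Gjb6 and S100b) were at or near 0, and the other 5 identity genes were measured at higher levels. Gfap had 0.12, 0.00 and 0.03 normalised CPM with miR-146a LNA and 0.02, 0.09 and 0.06 with control LNA, and Aqp4 had 8 counts over the 3 miR-146a LNA libraries and 0 over the 3 control libraries. Gjb6 and S100b stood at 0.22 normalised CPM or less in every culture library. Over the 6 culture libraries Sox9 stood at 16.2 to 21.0 normalised CPM, Gja1 at 8.27 to 11.8, Aldoc at 7.42 to 9.59, Aldh1l1 at 1.90 to 4.26 and Fgfr3 at 0.88 to 1.92. Some reactive genes were abundant there all the same: S100a10 stood at 450 ± 52.3 TPM with miR-146a LNA and 375 ± 11.2 TPM with control LNA, Vim at 138 ± 1.36 and 129 ± 1.43 TPM, and Cd44 at 114 ± 4.72 and 128 ± 11.8 TPM (SD, n = 3 each). B3gnt5, the lowest of the 33 genes in knockout cords, stood at 71.4 ± 0.835 TPM with miR-146a LNA and 72.7 ± 2.30 TPM with control LNA. Which cells of the cultures made these transcripts was not tested.

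With miR-146a LNA, edgeR called 3 of the 18 reactive genes tested higher and 0 lower, against 2.4% of 19099 genes higher and 6.16% lower. The 9 positive and 9 negative fold changes had a median of 0.02, and 0.008 over all genes tested. Scaled by library size alone, the calls over all genes were 741 higher and 831 lower, against 458 and 1177 with TMM scaling, and the same number of reactive genes, 3, was called higher. Of the 5 identity genes tested, 0 were called. Every treated library lay above every control library for 5 of the 18 reactive genes tested and below for 2. For the 5 identity genes these counts were 0 and 1. Over all 19099 genes tested they were 2450 and 2892. The 10 members not tested for low counts were Gfap, Lcn2, Steap4, Aspg, Tgm1, Ptx3, Cd14, Aqp4, Gjb6 and S100b.

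Srgn (ENSMUSG00000020077, chromosome 10, 62493833 to 62527451, minus strand) had 50.5, 33.6 and 44.2 normalised CPM with miR-146a LNA, against 23.3, 26.1 and 27.6 with control LNA. Every treated library lay above every control library, as for 2450 of all 19099 genes tested. It rose by a log2 fold change of 0.74 (SE 0.13, edgeR adjusted p = 0.0049), and without treated replicate 3 the adjusted p was 0.0723.

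Ggta1 (ENSMUSG00000035778, chromosome 2, 35400179 to 35463231, minus strand) had 10.9, 8.11 and 7.88 normalised CPM with miR-146a LNA, against 4.90, 5.51 and 6.93 with control LNA. The groups did not overlap, and treated replicate 1 was the highest. It rose by a log2 fold change of 0.63 (SE 0.16, edgeR adjusted p = 0.0225), and the adjusted p was 0.115, 0.11 and 0.112 without treated replicate 1, control replicate 1 and control replicate 2.

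S100a10 (ENSMUSG00000041959, chromosome 3, 93555080 to 93564643, plus strand) had 131, 136 and 166 normalised CPM with miR-146a LNA, against 116, 122 and 121 with control LNA. The groups did not overlap, and treated replicate 3 was the highest. It rose by a log2 fold change of 0.27 (SE 0.07, edgeR adjusted p = 0.0359), and the adjusted p was 0.129, 0.106 and 0.101 without control replicates 1, 2 and 3 in turn.

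Cd109 had 32.6, 33.4 and 33.05 normalised CPM with miR-146a LNA, against 35.2, 40.8 and 41.3 with control LNA. All treated libraries lay below all control libraries, with a log2 fold change of −0.24 (SE 0.08, edgeR adjusted p = 0.0588; DESeq2 adjusted p = 0.0332). Sox9, an identity gene that neural progenitors also express, was likewise lower in every treated library, at 16.2, 16.4 and 18.1, against 20.3, 19.9 and 21.0 (log2 fold change −0.27, SE 0.09, edgeR adjusted p = 0.0648; DESeq2 adjusted p = 0.0357). In cultures DESeq2 called 1433 of the 15555 genes with an adjusted p lower. Vim stood at 175, 171 and 175 normalised CPM with miR-146a LNA, against 164, 161 and 160 with control LNA (log2 fold change 0.10, SE 0.05, edgeR adjusted p = 0.207).

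**Figure D5:**
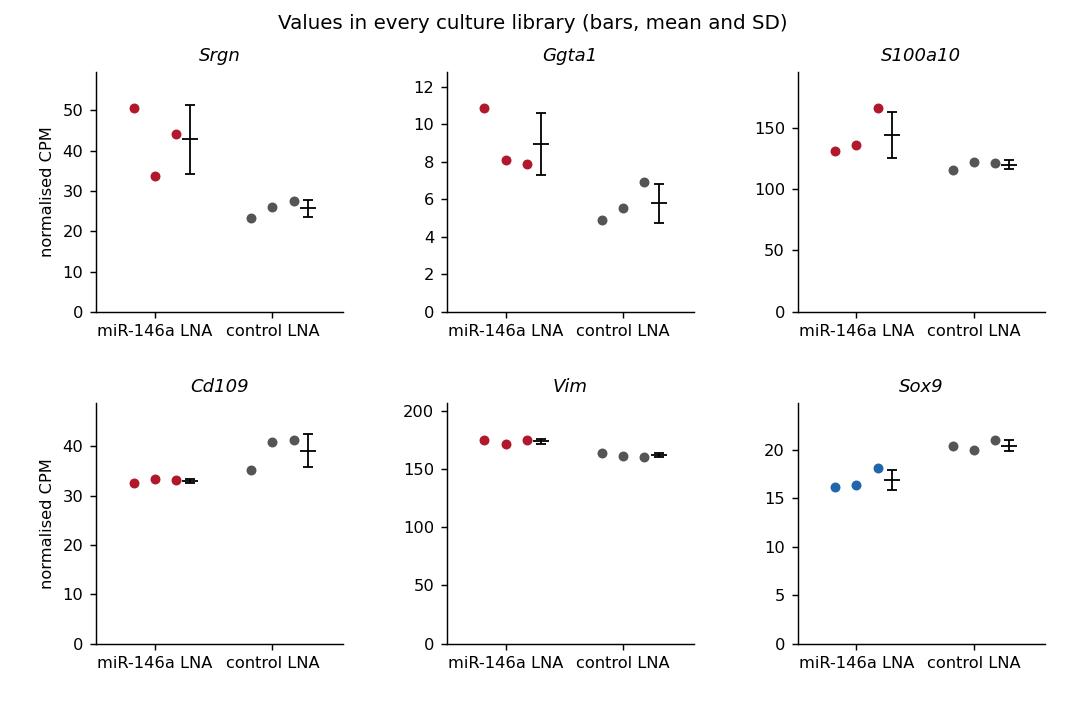
Normalised CPM (y axis, from 0) of 6 members in 3 miR-146a LNA and 3 control LNA motor neuron libraries, one point per library, with mean and SD beside each group. Srgn, Ggta1, S100a10 and Vim are higher and Cd109 and Sox9 lower in all 3 treated libraries, and edgeR called Srgn, Ggta1 and S100a10.

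Of the other tested members, fold changes ran from −1.86 for Cp, which had 13 counts over the treated and 47 over the control libraries (edgeR adjusted p = 0.09), to 0.33 for Fgfr3 (log2 scale). Of the microglia markers, Aif1, Cx3cr1 and P2ry12 were at or near 0. The leukocyte gene Ptprc, too low to be tested, stood at 0.14 to 0.51 normalised CPM with miR-146a LNA and 0.00 to 0.10 with control LNA, and its part in the Srgn values was not tested. Of 29 further astrocyte identity genes 23 were tested; 4 were called higher, Mt3 (1.00), Pla2g7 (0.63), F3 (0.43) and Sparcl1 (0.47), and 1 lower, the glutamate transporter Slc1a2 (−0.45), all with a mean of 26.3 normalised CPM or less with miR-146a LNA. Of 18 signal genes 9 were tested; Il1r1 (1.01) and Tnfrsf1a (0.44) were called higher and Il6st (−0.21) and Jak2 (−0.20) lower. Of 10 neural progenitor markers, all tested, 7 had a positive and 3 a negative fold change, from −0.45 to 0.72. Nes (0.41) and Top2a (0.72) were called higher and 0 lower, and the part of these markers in the values above was not tested.

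The knockout and LNA effects were compared by an interaction term over all 19 libraries, in which edgeR called 0 of the members and 1.75% of 24152 genes tested. The smallest adjusted p among members was 0.145, for Slc10a6. DESeq2 called 3, Tgm1, Cd109 and Cp, with the higher log2 fold change in cords, and 3.41% of all genes in this direction. For Cp the log2 fold changes were 1.70 in cords and −1.86 in cultures, the culture value on the 13 and 47 counts given above. Tgm1 had only 12 counts over the miR-146a LNA and 19 over the control LNA libraries, too few to be tested in cultures alone. The term shares 1 estimate of spread between cords and cultures, and it compares different cells as well as different ways of lowering miR-146a, which cannot be told apart. For the 3 genes that rose with the LNA, log2 fold changes in cords were 1.21 for Srgn, 1.62 for Ggta1 and 0.62 for S100a10.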

How the data were processed

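RNA was measured by sequencing of 19 libraries, and groups were taken from the labels. The authors deposited raw counts per gene, with CPM, FPKM and TPM computed from the counts in the same tables, per the file headers. Reads were aligned with STAR and counted with featureCounts, per the submitters' processing notes; the strand setting is not given in the sources used here, so overlapping genes on opposite strands cannot be told apart. FPKM values were not used, and TPM served only to compare levels between genes.

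Counts were filtered by edgeR's expression filter, scaled by TMM and tested in edgeR 4.0.16 (R 4.3.3) by the quasi-likelihood test with robust dispersions and Benjamini-Hochberg adjustment at 0.05, cords and cultures in separate fits. DESeq2 1.42.0 and limma 3.58.1 were alternatives, with other scalings, filters and each library left out; the fits without knockout libraries 7 and 9 in DESeq2 were added after the data were seen. DESeq2 replaces outlying counts in groups as large as the knockout group. Correlations and figures used Python 3.11.15 with scipy 1.17.1 and matplotlib 3.10.9. The methods were tested on simulated data that gave every gene and group the same dispersion. The cord groups differ in spread, so that test does not show how the methods behave on them.

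The genes and lists were chosen with earlier results of these data known. Genes given full statistics were Gfap, Vim, the 6 reactive and 2 identity genes with the smallest p in cords, and the 4 members with the smallest p in cultures. All 33 symbols matched 1 identifier, and of 244 genes in all lists 1, Ahsp, had no match. A floor of 3 counts was worth 0.0758 to 0.107 CPM in a cord library, and in a culture library 0.0458 to 0.0738 CPM; it covers counting error only. No pair of libraries agreed within sampling noise (smallest chi-square per degree of freedom 6.42). Some genes of the other lists are not reported here by name.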

Additional observations from a re-analysis of the deposited data

Results flagged for a closer look

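In 65 groups of 4 or 9 cord libraries, 8 had 1 library far from the others by Dixon's criterion, and chance flags about 1 in 20 groups. Knockout replicate 7 stood far above the other knockout cords for Timp1 (21.5 normalised CPM), Cp (139), Emp1 (40.9) and B3gnt5 (1.36). Knockout replicate 1 stood far above for Tgm1 (27.7 normalised CPM). The library labelled knockout replicate 9 stood far below for Aldoc (1401 normalised CPM). Wild-type replicate 4 stood far above the other wild-type cords for Lcn2 (9.36 normalised CPM) and far below for Aqp4 (278 normalised CPM).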

How the results depend on the processing

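Of the summary results, 275 values under alternatives stayed within their limits and 15 moved. In cords, reactive genes called higher numbered 0 by edgeR, 8 by DESeq2, 13 by DESeq2 without the library labelled knockout replicate 9, and 11 without that library and replicate 7. Members correlated with Gfap numbered 16, and 0 without the 2 libraries farthest from the median. In cultures, reactive genes called lower numbered 1 by DESeq2, by limma and with no filter, and 0 to 2 with 1 library left out; those called higher numbered 1 to 3, and the median log2 fold change of the reactive genes tested was −0.045 to 0.10. Identity genes called numbered 1 by DESeq2 and limma, and 0 to 1 with 1 library left out. The interaction gave 3 reactive genes by DESeq2. With the replicate block in cultures, 3 reactive genes were called higher, 0 lower and 0 identity genes, with a median of 0.01; same-numbered libraries did not deviate together (r = 0.0098, −0.050 and 0.0057), and the block changed no summary call.

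Signs turned for 23 values of single genes, none of them called, and the cause was not tested. In cords B3gnt5 had −0.293 by limma, −0.106 by edgeR and −0.115 by DESeq2 without knockout replicates 7 and 9, and −0.106 to 0.701 with 1 library left out; Aldoc had 0.0049 by limma and 0.0113 and 0.0025 by edgeR and DESeq2 without both; Gjb6 had −0.0283 to 0.0866 with 1 left out. In cultures limma gave 0.0116 for S1pr3, −0.0243 for Tm4sf1 and 0.0786 for Aldh1l1, and library size alone gave 0.0149 for S1pr3 and 0.0236 for B3gnt5. With 1 culture library left out, S1pr3 had −0.0845 to 0.0383, Tm4sf1 −0.056 to 0.231, Aldh1l1 −0.299 to 0.182, Slc10a6 −0.209 to 0.725, Fbln5 −0.394 to 0.0834 and Emp1 −0.477 to 0.0988. Depth limits Slc10a6, Steap4 and B3gnt5 in cords and Gfap, Aqp4, Tgm1 and Cp in cultures.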
